A study of Mus musculus with 26 samples.

Results

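The genes described here build centrioles or organize spindle poles, and 10 of the 55487 genes in the gene table were taken by name. The 5 centriole assembly factors were Plk4, Sass6, Stil, Cenpj and Cep152. The 5 pole organizers were Cep192, Pcnt, Nedd1, Tubg1 and Numa1. All 10 were found in the table. The study used scRR-seq on mouse 8-cell embryos, a method that separates the bead-bound DNA of each blastomere from its dissolved RNA and sequences both. The embryos came from in vitro fertilization of C57BL/6 oocytes, carried no genetic change or treatment named in the labels, and were dissociated by hand into single cells. Embryo 1 gave 3 of the cells analysed (cells 1, 6 and 7) and embryo 2 gave 6 (cells 2, 3, 5, 6, 7 and 8). Each embryo is 1 biological replicate, so SDs describe the spread between cells, no p-value was computed, and a contrast of the embryos rests on 1 embryo a side.

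Centrioles are cylinders of microtubules that form the core of the centrosome. A new centriole is built when the kinase PLK4, placed by CEP152 and CEP192, acts with STIL and the cartwheel protein SAS-6 (Sass6), and CPAP (Cenpj) then extends the wall. Mouse cleavage embryos are known to divide without centrioles, and their spindle poles are focused by pericentriolar proteins, gamma-tubulin and the dynein partner NUMA, so the pole organizers are needed at a stage when the structure built by the assembly factors is absent. Mouse centrioles reappear later, towards the blastocyst.

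Levels are given as TPM, a unit that is corrected for transcript length and adds up to the same total in every cell. Between 11058 and 13319 genes had TPM > 1 in a cell, and 4.28% to 18.2% of the TPM was in genes of the mitochondrial genome, with the highest share in embryo 2 cell 5. All 6 blastomere markers examined, among them Dppa3 and Pou5f1, had TPM > 1 in every cell. No cumulus cell marker of 7 and no sperm marker of 5 reached a mean TPM of 1, and their summed levels stayed at or below 0.56 and 1.62 TPM in any cell. The percentage of genome bins called replicated spanned 0.00385% to 3.54% in embryo 1 and 62.4% to 80.5% in embryo 2, so embryo and replication state cannot be told apart. The cells carried label numbers in a range from 11 to 17 (embryo 1 cell 1, embryo 2 cells 2 and 3) and a range from 20 to 25 (the other 6 cells). By the study's sample list these ranges were made by different protocol versions, scRR3 and scRR1, and they are used below as a technical split. The study reports that in embryos scRR1 leaned towards the 3′ end of transcripts and detected fewer of them than scRR3. It also describes the method as taking in unspliced RNA in theory. By its account the dissolved RNA is mainly cytoplasmic, and a subset of RNAs stays on the beads. The part of any of these in the transcript classes and range contrasts below was not tested.

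The promoters of 4 members are shown because they hold the motifs examined and belong to genes on both sides of the main comparison. They were taken from RefSeq (GRCm38.p6), run from 250 bases before to 50 bases after the gene start, and are written 5′ to 3′ on the gene's own strand. Capitals mark matches on either strand. The letters TTCCCGC are a heptamer bound by E2F factors. The cell cycle homology region (CHR) element was searched as TTTGAA. The box bound by NF-Y was searched as CCAAT. The windows lie at chr3:40799701-40800000 (+) for Plk4, chr3:116594708-116595007 (+) for Sass6, chr4:114999868-115000167 (+) for Stil and chr10:76442863-76443162 (-) for Pcnt.
Plk4: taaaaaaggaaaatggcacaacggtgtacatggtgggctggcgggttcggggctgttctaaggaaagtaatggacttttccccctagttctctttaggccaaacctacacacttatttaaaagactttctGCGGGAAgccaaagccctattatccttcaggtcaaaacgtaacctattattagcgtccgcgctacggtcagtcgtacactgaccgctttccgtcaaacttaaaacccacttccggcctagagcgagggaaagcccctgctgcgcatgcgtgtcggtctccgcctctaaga
Sass6: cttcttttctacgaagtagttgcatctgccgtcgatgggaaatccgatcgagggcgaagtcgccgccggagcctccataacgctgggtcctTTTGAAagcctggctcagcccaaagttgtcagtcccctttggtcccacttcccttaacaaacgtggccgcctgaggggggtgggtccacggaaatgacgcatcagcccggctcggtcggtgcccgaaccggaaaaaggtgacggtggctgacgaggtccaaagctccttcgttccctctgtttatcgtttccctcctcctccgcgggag
Stil: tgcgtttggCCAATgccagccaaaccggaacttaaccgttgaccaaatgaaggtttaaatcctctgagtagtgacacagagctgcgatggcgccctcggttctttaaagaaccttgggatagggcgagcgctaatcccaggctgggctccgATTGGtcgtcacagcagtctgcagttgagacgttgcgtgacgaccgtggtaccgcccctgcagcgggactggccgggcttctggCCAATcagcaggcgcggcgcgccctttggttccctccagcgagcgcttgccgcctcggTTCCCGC
Pcnt: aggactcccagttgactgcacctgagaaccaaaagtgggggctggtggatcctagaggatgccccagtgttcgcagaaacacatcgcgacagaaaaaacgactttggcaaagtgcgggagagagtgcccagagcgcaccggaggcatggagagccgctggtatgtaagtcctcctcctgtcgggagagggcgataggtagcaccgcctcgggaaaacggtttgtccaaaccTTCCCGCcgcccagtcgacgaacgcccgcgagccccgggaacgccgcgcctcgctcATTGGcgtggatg
Promoters were found for 7 of the 10 members. Of these, Plk4, Stil, Cep152 and Pcnt (4 of 7) held the E2F heptamer, which 4.60% of the 32851 promoters in the table held. Only Sass6 of the 7 held the CHR element, against 17.9% of all promoters. Cep152, Stil and Pcnt held CCAAT, against 37.4%. Neither Cenpj nor Numa1 held any of the 3 motifs. These are matches of letters and not shown sites of binding.

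RNA of the pole organizers was detected in every cell, while detection of the assembly factors was divided. At TPM > 1, all 5 pole organizers and 2 of 5 assembly factors (Plk4 and Sass6) passed in all 9 cells. Of the 13648 genes with a mean TPM above 1, 52.9% did so. Stil passed in 8 cells, Cenpj in 6 and Cep152 in 5. Values of 0 occurred only among these low genes, for Cenpj in embryo 2 cell 5 and for Cep152 in embryo 2 cell 3. The table keeps no read depth, so a value of 0 is not shown to mean absence of the RNA.

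Plk4 (ENSMUSG00000025758.10, chromosome 3, 40800019 to 40816883 of GRCm38), the kinase that starts centriole duplication, was the assembly factor with the most RNA. Cells 1, 6 and 7 of embryo 1 had 21.23, 14.11 and 9.25 TPM. Cells 2, 3, 5, 6, 7 and 8 of embryo 2 had 27.07, 28.58, 15.83, 7.74, 46.48 and 15 TPM, and values of the other genes follow in this order of cells. The highest and the lowest value were both in embryo 2, and its cells spanned the whole range of embryo 1. The mean was 20.6 ± 12.1 TPM (SD, n = 9 cells), above 65.4% of the genes with a mean TPM over 1.

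Sass6 (ENSMUSG00000027959.14, chromosome 3, 116594982 to 116631004) encodes the protein whose oligomers form the cartwheel hub. In embryo 1 it had 8.94, 7.19 and 6.80 TPM, and in embryo 2 19.74, 16.22, 8.76, 8.36, 14.41 and 55.64 TPM. Embryo 2 cell 8 stood far above the rest, and the 3 embryo 1 cells lay close together at the low end. Its mean was 16.2 ± 15.5 TPM, an SD of 95.2% of the mean, where genes with a mean between 10 and 60 TPM had a median of 50.8%.

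The remaining assembly factors formed a low set. Stil (ENSMUSG00000028718.16, chromosome 4, 115000159 to 115043196), the scaffold that links PLK4 to SAS-6, had 2.12, 0.43 and 1.55 TPM in the cells of embryo 1 and 2.2, 3.38, 4.46, 1.82, 4.72 and 3.61 TPM in those of embryo 2. Only embryo 2 cell 6 lay within the embryo 1 range. Cenpj (ENSMUSG00000064128.8, chromosome 14, 56526761 to 56575425), which controls the length of the centriole wall, had 1.17, 1.05 and 3.44 TPM in the cells of embryo 1 and 5.25, 3.57, 0, 0.69, 0.14 and 4.85 TPM in those of embryo 2. In these gene levels, embryo 2 cells divided into 3 above every embryo 1 cell and 3 below every embryo 1 cell. Cep152 (ENSMUSG00000068394.4, chromosome 2, 125563088 to 125625113), a receptor for PLK4 at the parent centriole, had 2.05, 0.79 and 0.66 TPM in the cells of embryo 1 and 5.46, 0, 0.82, 1.56, 3.24 and 2.24 TPM in those of embryo 2. The means of these genes were 2.70 ± 1.43, 2.24 ± 2.05 and 1.87 ± 1.67 TPM, above 22.7%, 19.0% and 15.04% of genes. SDs of 52.9% (Stil), 91.3% (Cenpj) and 89.3% (Cep152) of the mean compare with a median of 118% for genes between 1 and 4 TPM.

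Pcnt (ENSMUSG00000001151.10, chromosome 10, 76351263 to 76442786), the large scaffold of pericentriolar material, had the highest level of the 10 genes. It had 84.27, 18.61 and 28.92 TPM in the cells of embryo 1 and 78.69, 65.55, 91.35, 59.10, 96.58 and 12.78 TPM in those of embryo 2. In 6 of the 9 cells it lay at or above 59.10 TPM and in the other 3 at or below 28.92, and both embryos had cells on either side. Its mean of 59.5 ± 32.0 TPM exceeded that of 83.8% of genes. Nedd1 (ENSMUSG00000019988.7, chromosome 10, 92684746 to 92722420), the adaptor that brings the gamma-tubulin ring complex to poles and spindle microtubules, had 29.32, 34.12 and 16.74 TPM in the cells of embryo 1 and 18.72, 18.04, 75.19, 9.05, 22.18 and 28.39 TPM in those of embryo 2. Embryo 2 cell 5 was apart from the others. Its mean was 28.0 ± 19.3 TPM.

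Cep192, Tubg1 and Numa1 had means close to that of Plk4. Cep192 (ENSMUSG00000024542.9, chromosome 18, 67800107 to 67885170), a scaffold that recruits Aurora A and PLK1 to poles and PLK4 to centrioles, had 16.01, 20.82 and 14.30 TPM in the cells of embryo 1 and 30.49, 11.86, 10.43, 12.82, 47.21 and 18.07 TPM in those of embryo 2. Its embryo 1 cells fell inside the wider range of embryo 2. Tubg1 (ENSMUSG00000035198.9, chromosome 11, 101119938 to 101126419), the gamma-tubulin of the nucleating ring, had 25.72, 9.11 and 28.08 TPM in the cells of embryo 1 and 28.68, 38.09, 16.67, 9.35, 11.35 and 5.60 TPM in those of embryo 2. The cells numbered 20 to 25 held the 5 lowest values. Numa1 (ENSMUSG00000066306.13, chromosome 7, 101934111 to 102014964), which focuses minus ends with dynein, had 34.05, 15.10 and 17.34 TPM in the cells of embryo 1 and 25.92, 21.25, 3.39, 9.36, 32.34 and 5.16 TPM in those of embryo 2. The lowest 3 cells were all of embryo 2. Means were 20.2 ± 11.8, 19.2 ± 11.3 and 18.2 ± 11.2 TPM for Cep192, Tubg1 and Numa1.

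Tubg1 transcripts shared 244 sequences of 50 bases, 11.01% of their own, with those of the paralog Tubg2. Reads from these stretches could be split between both genes, and the level of Tubg1 carries that uncertainty.

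**Figure D1:**
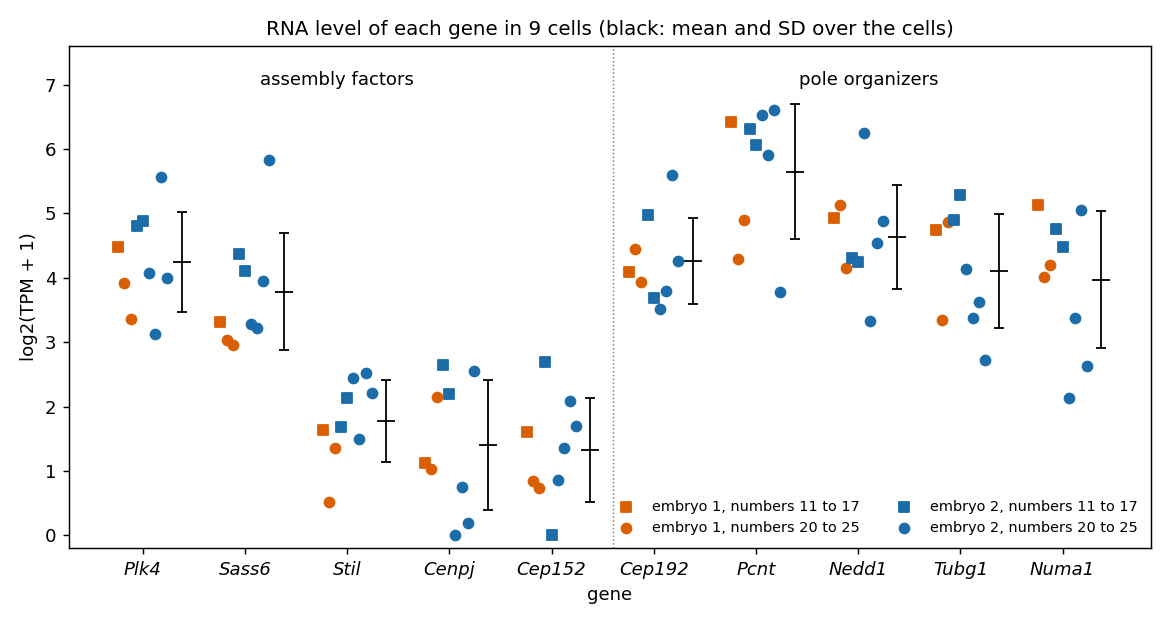
RNA level of each gene as log2(TPM + 1) on the y axis, with 1 point for each of the 9 cells. Orange marks embryo 1, blue embryo 2, squares label numbers 11 to 17 and circles 20 to 25, and black bars give the mean and SD over cells. Stil, Cenpj and Cep152 lie below the other 7 genes, and Plk4 and Sass6 lie among the pole organizers.

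Ordered by mean log2(TPM + 1), the genes ran Pcnt, Nedd1, Cep192, Plk4, Tubg1, Numa1, Sass6, Stil, Cenpj and Cep152. Only the step from Sass6 to Stil exceeded its own SD over cells, at 2.01 ± 0.82 (n = 9 cells), and Sass6 was higher in 9 of 9 cells. Every other neighbouring pair differed by less than its SD. Cep192 and Plk4 were the closest, with a mean difference of 0.01 ± 0.62. The step from Pcnt to Nedd1 was 1.01 ± 1.32. The division in level therefore ran inside the assembly factors and not between the roles.

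As groups, pole organizers exceeded assembly factors in 9 of 9 cells. The mean log2(TPM + 1) of the 5 pole organizers minus that of the 5 assembly factors was 2.02 ± 0.65 (SD, n = 9 cells), with group means of 4.52 and 2.51. It ranged from 0.40 in embryo 2 cell 8 to 2.63 in embryo 1 cell 1. Summed levels were 145 ± 52.2 TPM for pole organizers and 43.6 ± 22.6 TPM for assembly factors. The ratio of the sums averaged 3.98 ± 1.69 and was 0.861 in embryo 2 cell 8, the only cell below 1. In that cell Sass6 was at its highest and Pcnt and Tubg1 were at their lowest. Every pole organizer exceeded every assembly factor in only 2 cells, embryo 1 cell 7 and embryo 2 cell 6. With only the genes above 1 TPM in every cell, which left Plk4 and Sass6 against all 5 pole organizers, the difference was 0.51. This filter removes Stil, Cenpj and Cep152 by their level, so a smaller difference follows from the filter itself. The SD of 0.65 is that of the full groups, and the spread of the filtered difference was not computed.

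**Figure D2:**
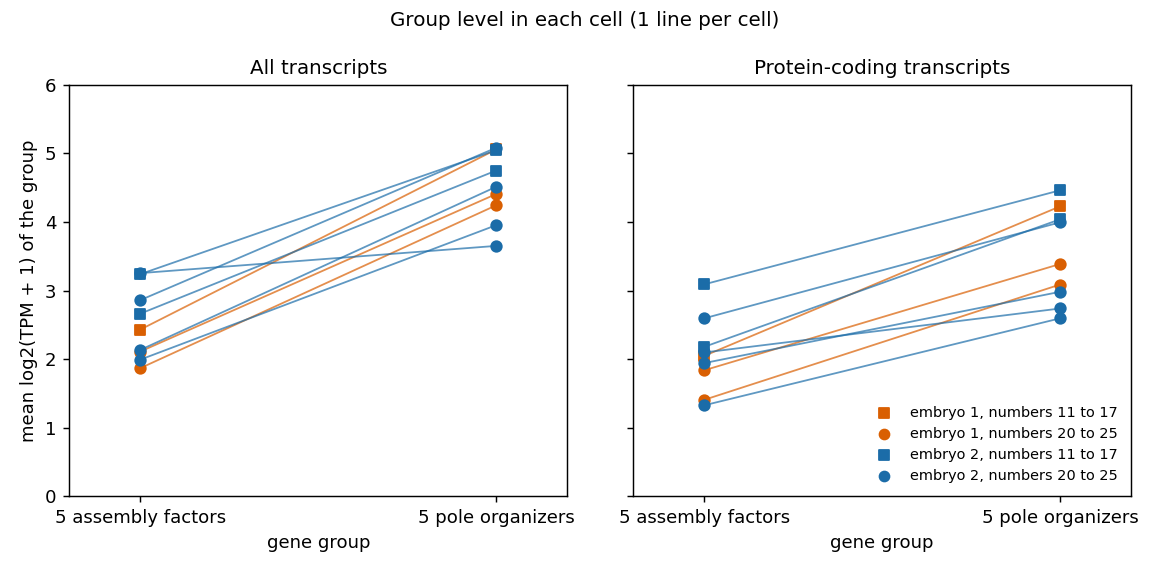
Mean log2(TPM + 1) of the 5 assembly factors and the 5 pole organizers on the y axis, with 1 line per cell, for all transcripts and for protein-coding transcripts. Orange marks embryo 1, blue embryo 2, squares label numbers 11 to 17 and circles 20 to 25. All lines rise towards the pole organizers, with mean differences of 2.02 and 1.44.

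The transcript table gives a different picture of the high members. Gene levels equalled the sum of their transcripts within 0.01 TPM, so each level could be divided by the class that the annotation gives to a transcript. Pcnt RNA was mostly assigned to transcripts not annotated as protein-coding. Its protein-coding transcripts held 12.5% ± 9.18 of its TPM (SD, n = 9 cells), from 1.71% in embryo 2 cell 5 to 26.5% in embryo 2 cell 2. Transcripts with a retained intron averaged 26.8 TPM, those annotated for nonsense-mediated decay 17.4 TPM, processed transcripts 8.56 TPM and protein-coding ones 6.77 TPM. Over 8153 protein-coding genes with a mean TPM above 1 and at least 1 noncoding transcript, the median coding share of mean TPM was 79.7%. Pcnt had 11.4% by this measure, and 6.10% of these genes had less. Weighted by transcript length, protein-coding transcripts held 34.1% of Pcnt (6.91% to 59.5%).

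Cep192 showed the same division with a smaller gap. Its single protein-coding transcript held 26.3% ± 16.6 of its TPM and was listed at 0 in embryo 2 cell 5, and 14.3% of genes had a lower share of their mean TPM. Transcripts with a retained intron averaged 12.2 TPM against 5.71 TPM for the protein-coding one. Nedd1, Tubg1 and Numa1 were the opposite, with coding shares of 97.9%, 98.9% and 98.6%. Nedd1-201 and Tubg1-201 led in every cell. Numa1 RNA was shared among 6 protein-coding transcripts, with Numa1-202 leading in 7 cells and Numa1-201 in 2.

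Among the assembly factors, Plk4 RNA changed its leading transcript from cell to cell. Its 9 cells had 5 different leading transcripts, and protein-coding ones held 59.1% ± 38.4 of its TPM. They were listed at 0 in embryo 1 cell 7 and embryo 2 cell 6, where Plk4-205, annotated for nonsense-mediated decay, led with 8.48 and 6.54 TPM. In embryo 2 cell 7, the cell with most Plk4, they held 99.1%. The high Sass6 value of embryo 2 cell 8 was assigned to the processed transcript Sass6-202, with 53.86 of 55.64 TPM, while its protein-coding transcripts were at 1.53 TPM, the lowest of the 9 cells, where the highest had 16.79 TPM. Cenpj-204, a short transcript with a retained intron, gave 3.40 TPM of the Cenpj level in both embryo 2 cell 3 and embryo 2 cell 8. In protein-coding transcripts of Cenpj these cells had 0.16 and 1.46 TPM. Of embryo 2, only cell 2, at 5.26 TPM, then lay above every embryo 1 cell. Stil was 90.5% ± 23.9 protein-coding, and Cep152 has a single annotated transcript.

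On protein-coding transcripts alone the order of mean TPM was Nedd1 (26.7 TPM), Tubg1 (18.8), Numa1 (18.1), Plk4 (14.96), Sass6 (8.88), Pcnt (6.77), Cep192 (5.71), Stil (2.29), Cep152 (1.87) and Cenpj (1.49). Pcnt thus moved from the head of the list to behind Plk4 and Sass6. The group difference was 1.44 ± 0.45 on log2(TPM + 1), still positive in 9 of 9 cells (0.64 to 2.18). Summed levels were 76.2 ± 25.7 TPM for pole organizers and 29.5 ± 18.8 TPM for assembly factors. Transcript levels are estimates by RSEM from reads that often match several transcripts of a gene, so the division among classes is uncertain. The gene level is the sum of these length-corrected values and shares that uncertainty, as do the group sums. Short transcripts enter it, such as Pcnt-205 (875 bases, mean 17.4 TPM) and Sass6-202 (819 bases, 53.86 TPM in embryo 2 cell 8).

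**Figure D3:**
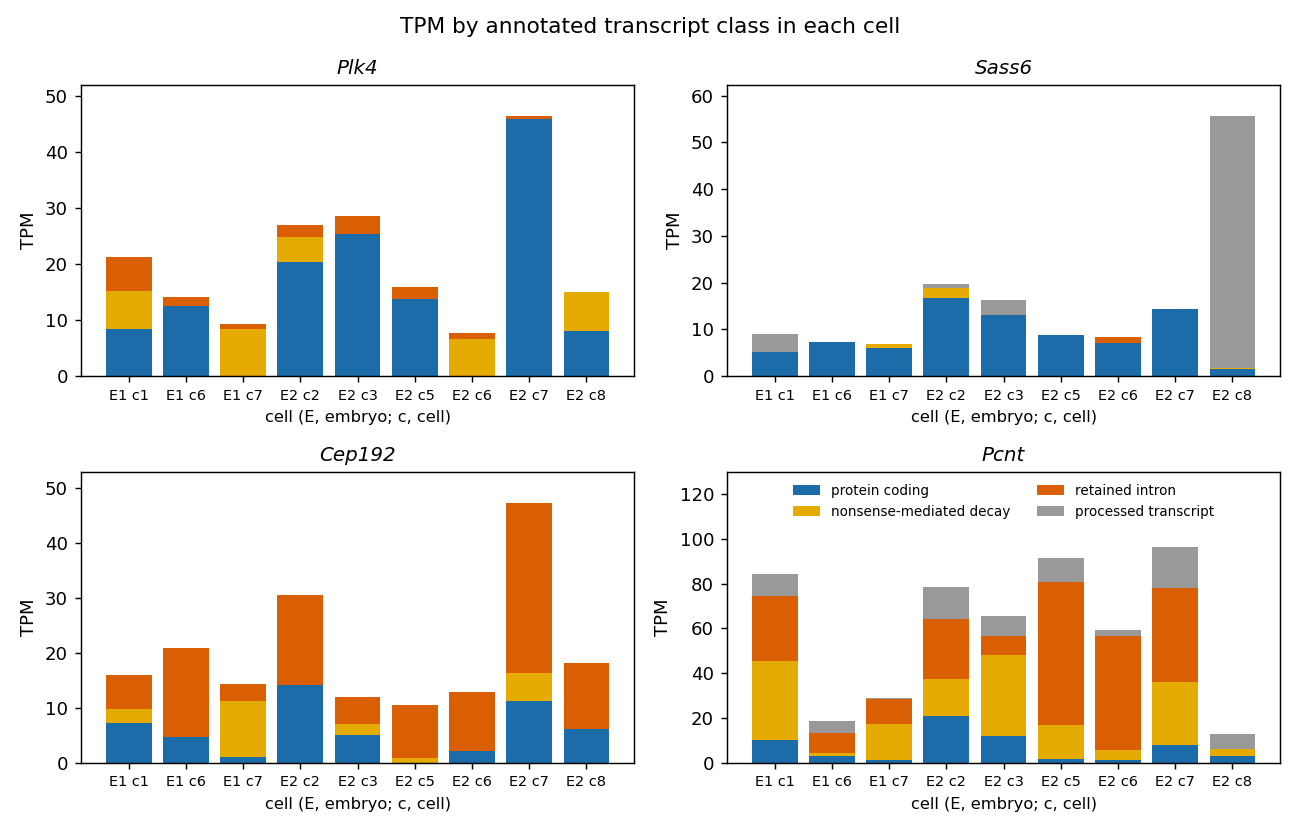
TPM of Plk4, Sass6, Cep192 and Pcnt in each cell on the y axis, stacked by annotated transcript class, with cells on the x axis (E, embryo; c, cell). In most cells the Pcnt and Cep192 bars are mainly retained-intron and nonsense-mediated decay transcripts, and the tall Sass6 bar in embryo 2 cell 8 is a processed transcript.

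Between the embryos, the mean of the assembly factors was higher in embryo 2 by about its spread between cells, and that of the pole organizers differed by less than its spread. The mean log2(TPM + 1) of the assembly factors was 2.14 with an SD of 0.28 over the 3 cells of embryo 1. Over the 6 cells of embryo 2 it was 2.69 with an SD of 0.54. The difference of 0.55 was just over the pooled SD between cells of 0.48, and it was 0.52 within numbers 11 to 17 and 0.57 within 20 to 25. It was 0.42 without embryo 1 cell 6, 0.44 without embryo 2 cell 2 and 0.44 without embryo 2 cell 8, and 0.44 on protein-coding transcripts (pooled SD 0.53), each below the pooled SD. Where cells or genes were left out, the SD was still that of all cells and genes. Without the gene Sass6 it was 0.44 and without Stil 0.47, also below 0.48, and Cenpj had a difference of -0.05. For pole organizers the means were 4.57 ± 0.43 and 4.50 ± 0.59, a difference of -0.07 beside a pooled SD of 0.55. The median of all genes with a mean TPM above 1 was -0.04.

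Of single genes, Sass6 and Stil differed between embryos by more than their pooled SD. Sass6 was higher in embryo 2 by 1.02 on log2(TPM + 1) (pooled SD 0.81) and Stil by 0.91 (pooled SD 0.47). Without embryo 2 cell 8, whose Sass6 RNA was nearly all the processed transcript, the Sass6 difference was 0.68. The SD of 0.81 includes that cell, and whether 0.68 exceeds the spread of the remaining cells was not tested. Stil differed by 0.26 within numbers 11 to 17, by 1.23 within 20 to 25 and by 0.58 without embryo 1 cell 6. The others ranged from -0.71 for Numa1 (pooled SD 1.07) to 0.66 for Pcnt (pooled SD 1.07). None of the 10 members had all cells of an embryo above all cells of the other, where 3.35% of 13648 genes did. Without embryo 1 cell 1, every embryo 2 cell exceeded every remaining embryo 1 cell for Sass6 and Stil, where 8.75% of genes then differed in this way in either direction. Without embryo 2 cell 6 this held for Stil alone (4.72% of genes).

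The label number ranges moved the pole organizers more than the embryos did. Their mean log2(TPM + 1) was 4.95 for numbers 11 to 17 (n = 3 cells) and 4.31 for 20 to 25 (n = 6 cells). The difference of -0.64 exceeded the pooled SD of 0.43 and was -0.73 in embryo 1 and -0.60 in embryo 2. All genes had a median of -0.29, and after scaling each cell by its median over genes detected in every cell the pole organizer difference was -0.42, just under the SD. Assembly factors differed by -0.41 (pooled SD 0.52). Tubg1 had the largest difference, -1.30 (pooled SD 0.64), with 25.72 to 38.09 TPM in 11 to 17 and 5.60 to 28.08 TPM in 20 to 25. Numa1 followed with -1.22 (pooled SD 0.93). All 5 assembly factors and 3 of 5 pole organizers were lower on average in 20 to 25, as were 65.8% of genes. Cep192 and Nedd1 were the exceptions, at 0.01 and 0.22.

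None of the 10 members was separated completely by the ranges, against 7.36% of genes. On protein-coding transcripts Pcnt was, with 10.29 to 20.87 TPM in 11 to 17 and 1.26 to 7.86 TPM in 20 to 25, against 8.92% of 9534 genes. The pole organizer difference was then -1.11 (pooled SD 0.44). It was -0.99 in embryo 1 and -1.17 in embryo 2, so it had the same direction in both.

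**Figure D4:**
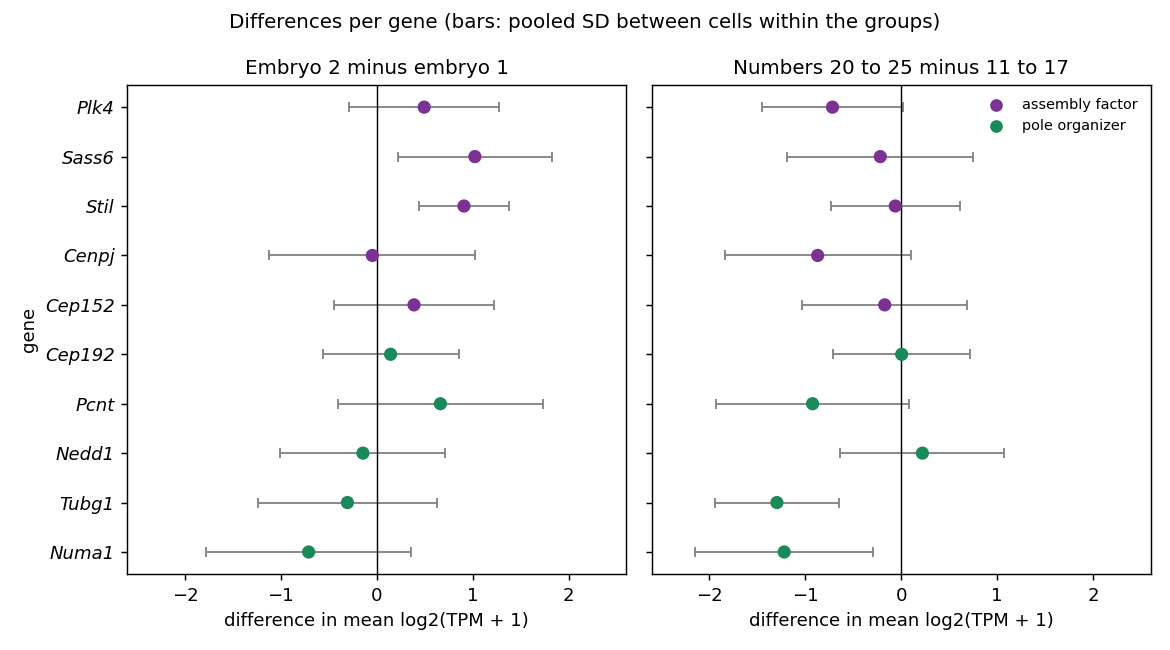
Difference in mean log2(TPM + 1) on the x axis for each gene, between the embryos and between the label number ranges, with bars for the pooled SD between cells within the groups. For embryos the bars of Sass6 and Stil stay clear of 0, and for ranges those of Tubg1 and Numa1 do.

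Replication of 8 members could be read from the DNA of the same cells. Pcnt and Nedd1 are on chromosome 10, for which no bins were analysed here. A state of 1 or -1 is a copy number call, so a cell with uniform copy number is called unreplicated whether it lies before or after S phase. Sass6, Stil, Cenpj, Cep152, Tubg1 and Numa1 were called replicated in 6 of 6 embryo 2 cells. Plk4 was replicated in 5, and Cep192 in 4. Thus 6 of 8 members were replicated in every embryo 2 cell, against 74.3% of 10978 genes. In embryo 1 all 8 were called unreplicated except Numa1 in cell 1. The study's notes name chromosomal abnormalities in cells of this embryo, and whether one covers Numa1 on chromosome 7 was not tested.

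Levels of Plk4 and Cep192 in cells that had not replicated them lay inside the range of the other embryo 2 cells. Plk4 was unreplicated in embryo 2 cell 3 and stood there at 28.58 TPM, inside the 7.74 to 46.48 TPM of the other 5 cells. Cep192 was unreplicated in embryo 2 cells 3 and 6, with 11.86 and 12.82 TPM, and the 4 replicated cells held 10.43 to 47.21 TPM. Numa1 in embryo 1 cell 1 was at 34.05 TPM, the highest of its 9 values. With so few cells in the other state, no gene-wise comparison was made.

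**Figure D5:**
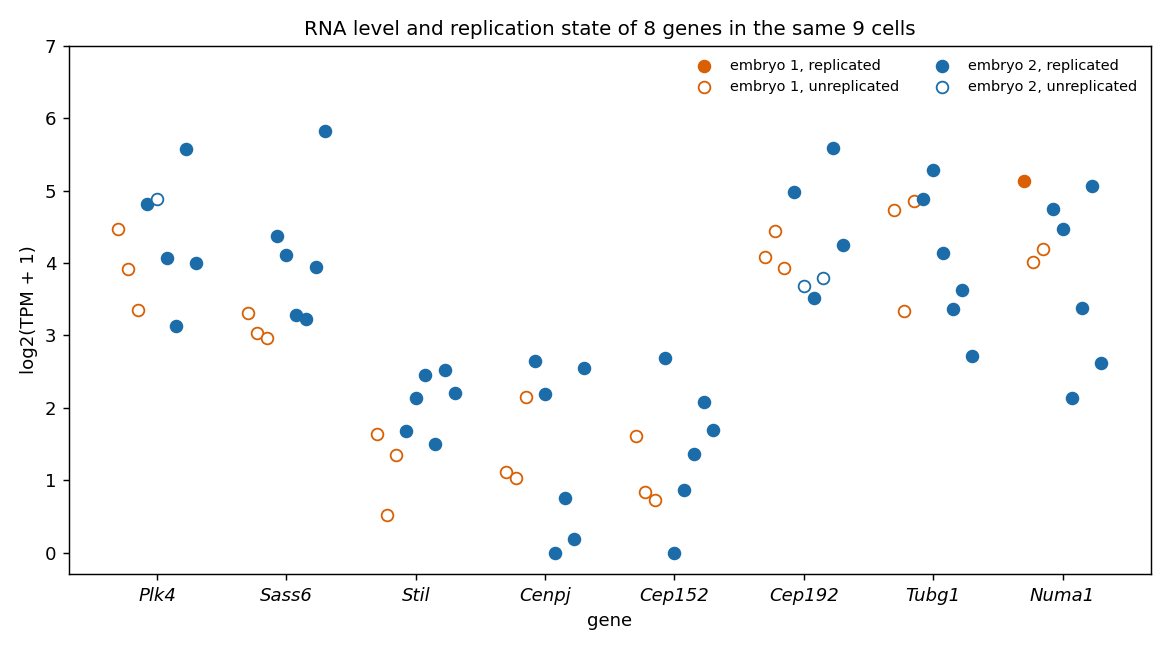
RNA level as log2(TPM + 1) on the y axis for the 8 members with replication calls, with 1 point per cell, filled where the gene was called replicated and open where it was not. Orange marks embryo 1 and blue embryo 2. In embryo 2 the only open points are Plk4 in cell 3 and Cep192 in cells 3 and 6.

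Across the 9 cells the members varied largely apart from each other. Over 45 pairs, Pearson's r of log2(TPM + 1) had a median of 0.15, and 7216 genes with TPM > 1 in every cell had a median of 0.06. The highest was 0.73 for Cep152 and Cep192, the pair of scaffolds that recruit PLK4, and the lowest -0.45 for Cenpj and Pcnt. Pairs within a role had a median of 0.24 and pairs across roles 0.15. These are descriptions over cells that share embryos and protocol ranges.

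By Pearson's r of log2(TPM + 1), the genes most like Plk4 over the 9 cells were Hars2 (r = 0.95), Lsm14a (0.95) and Melk (0.93), out of 7216. Hars2 encodes the mitochondrial histidyl-tRNA synthetase, Lsm14a a P-body protein and Melk a mitotic kinase. All 3 peaked in embryo 2 cell 7, as did Plk4. Most like Numa1 were Homer2 (0.97), Eif2b4 (0.97) and Ints11 (0.96). Homer2 encodes a scaffold protein, Eif2b4 a subunit of the translation factor eIF2B and Ints11 the endonuclease of Integrator. The search covered 7216 genes over only 9 cells, and nothing about function is read from it.

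The other genes of the pathway are given by list. Of all genes with a mean TPM above 1, 52.9% passed 1 TPM in every cell. This share compares only with list genes that also have a mean TPM above 1, whose number is given for each list. Of 24 further genes of centriole duplication and elongation, 21 had a mean TPM above 1 and 12 passed 1 TPM in every cell. Cetn3, a centrin, led with 155 ± 120 TPM, followed by Cep63 with 35.0 ± 27.6 and Poc5 with 19.7 ± 9.29. Cetn3 was at 18.54 to 82.10 TPM in numbers 11 to 17 and at 121.39 to 402.05 TPM in 20 to 25. It was the only gene of this list separated by the ranges, where 7.36% of all genes were separated in either direction. Cep295, which turns new centrioles into centrosomes, was the only gene of any list whose embryos did not overlap, running from 7.61 to 9.88 TPM in embryo 1 but from 10.45 to 36.84 TPM in embryo 2. Across all genes with a mean TPM above 1, 0.843% were separated in this direction and 3.35% in either direction. All lists were searched in both directions, so Cep295 is given as a description and not as a finding beyond that share.

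Gamma-tubulin ring and augmin genes, the partners of Tubg1 and Nedd1, were detected almost throughout. Of 16, 15 had a mean TPM above 1 and 14 passed in every cell. Between the label number ranges, 1 of them was wholly higher and 1 wholly lower in 20 to 25. Of all genes with a mean TPM above 1, 7.36% were separated in either direction, so this count is given only as a description. The augmin subunits Haus3 and Haus2 and the ring component Mzt1 led with 69.1 ± 58.1, 44.0 ± 22.3 and 31.1 ± 21.1 TPM. Of 7 further pericentriolar scaffold and satellite genes found, all had a mean TPM above 1 and 4 passed in every cell. They were led by Ssx2ip (19.4 ± 14.4 TPM), Pcm1 (15.8 ± 5.56) and Cep131 (15.4 ± 8.43). Of 10 appendage genes found, which mark mature centrioles, 7 had a mean TPM above 1 and 4 passed in every cell. They were led by Cep89 with 64.9 ± 29.7 TPM, Cep170 with 18.7 ± 17.3 and Odf2 with 10.8 ± 7.25.

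The list of genes for spindle assembly without centrosomes, which also takes in midzone genes such as Kif23, held the highest levels. Of its 18 genes, 17 had a mean TPM above 1 and 16 passed in every cell. They were led by the GTPase Ran (596 ± 135 TPM), the midzone kinesin Kif23 (369 ± 111) and the kinase Aurka (251 ± 35.9). For 4 of these 18, every cell numbered 20 to 25 lay below every cell numbered 11 to 17, Aurka among them, where 6.13% of genes did. Of 12 cortical partners of Numa1 and dynein, 11 had a mean TPM above 1 and 7 passed in every cell. They were led by Pafah1b1 (79.6 ± 63.0 TPM), Gnai2 (41.2 ± 24.9) and Gnai3 (22.5 ± 4.64). Of 7 interphase microtubule organizers, all had a mean TPM above 1 and 4 passed in every cell. They were led by Map4 (150 ± 60.8 TPM), Mapre1 (144 ± 65.0) and Kif5b (49.4 ± 19.2). Gnai2 and Map4 were also lower in every cell numbered 20 to 25 than in every cell numbered 11 to 17, each as the only gene of its list.

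None of 7 genes of multiciliated cells, which build many centrioles at once, had a mean TPM above 1, and 4 were listed at 0 in every cell. The highest of them was Ccno at 0.914 ± 0.805 TPM, ahead of Mcidas and Myb.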

How the data were processed

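RNA and DNA came from the same 9 cells. The RNA tables that the authors deposited hold TPM of 55487 genes and 142699 transcripts, made from a common number of reads with Hisat and RSEM on GENCODE M25 (mm10), with no pooling. For scRR-seq-DNA the deposited values are replication scores per bin of 40 kb (1, replicated; -1, unreplicated; 0, no data) on 17 chromosomes, with reads aligned by BWA 0.7.17-r1188 and states called by AneuFinder. TPM and scores keep no read depth, so no counting interval was computed.

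All RNA headers name the same embryo and cell, and columns were assigned by their closing number, which matches 1 RNA title each. Per table, 14 columns without a label of this series were not used, and 4 of 13 labelled cells were not analysed here.

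The members and lists were chosen with earlier results of these data known. Named genes were the 10 members, the 3 of each list with the highest mean TPM, every list gene whose embryos did not overlap, and the 3 genes with the highest Pearson's r to Plk4 and to Numa1. Differences are on log2(TPM + 1), which understates changes of low genes. Groups were called not overlapping where every cell of a group exceeded every cell of the other. Cells of an embryo are not replicates, so no test between groups was run, and Dixon's criterion over the embryo 2 cells served only to list values that stand apart. Coordinates and transcript classes are from GENCODE M21 of the same build. A gene took the majority state of the bins it overlaps. Sequence sharing was counted over transcript stretches of 50 bases. The count and difference functions were tested on simulated data. Alternatives were a pseudocount of 0.1, sums or medians, rescaling without 37 mitochondrial genes or by the cell median, other thresholds, protein-coding transcripts, and leaving out genes, cells or ranges. Python 3.11.15, numpy 2.4.6, pandas 2.3.3 and matplotlib 3.10.9 were used.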

Additional observations from a re-analysis of the deposited data

Results flagged for a closer look

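Over the 6 cells of embryo 2, the gap between the highest or lowest value and its neighbour was set against the whole range for 23 measures, which were the TPM of each member, its TPM in protein-coding transcripts and the group values. Of these, 5 passed Dixon's 95% limit, which chance passes in about 1 of 20 groups. The measures are not independent, since Nedd1 enters with all and with protein-coding transcripts and the group difference holds the same Sass6 value, and cells of an embryo are not replicates, so the 5 are listed as values that stand apart and not as a count beyond chance. Embryo 2 cell 8 had Sass6 at 55.64 TPM, where the next cell had 19.74. The same cell had the lowest difference of pole organizers minus assembly factors, 0.40 on log2(TPM + 1), against 1.81 in the next. Embryo 2 cell 5 had Nedd1 at 75.19 TPM against 28.39, and at 65.88 TPM against 28.39 in protein-coding transcripts. Embryo 2 cell 2 had Cenpj at 5.26 TPM in protein-coding transcripts against 1.46.

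Without embryo 2 cell 8, the difference between the gene groups was 2.22. These cells had mitochondrial shares of 16.7% (cell 8), 18.2% (cell 5) and 6.82% (cell 2), and the part of these shares in the values was not tested.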

How the results depend on the processing

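No paired analysis was possible because cell numbers do not pair cells of different embryos and no comparison between groups comes from a test. The difference of pole organizers minus assembly factors stayed positive under every alternative run, from 1.72 to 2.45 when a member was left out and from 1.94 to 2.22 when a cell was. It was 0.51 with only genes above 1 TPM in every cell, a filter that removes the low assembly factors by their level. The pole organizer difference between label number ranges was -1.11 on protein-coding transcripts and -0.80 to -0.51 when a cell was left out. The assembly factor difference between embryos was 0.42 to 0.70 when a cell was left out. The pole organizer difference between embryos was -0.23 to 0.17, so its sign was not settled. The count of members whose embryos did not overlap was 0, but 3 with numbers 20 to 25 only (Sass6, Stil and Cep152, where 14.7% of genes differed so), and 0 to 2 when a cell was left out. The count for label number ranges was 0, and 1 on protein-coding transcripts. The leading transcript of a member held on average 58.3% of its TPM, 78.1% among protein-coding transcripts, and 54.1% to 63.4% when a cell was left out, the last without embryo 2 cell 8. Protein-coding transcripts held 55.5% of member TPM and 67.6% weighted by transcript length. Of single genes, Stil moved from 0.91 to 1.40 with a pseudocount of 0.1 and to 0.26 within numbers 11 to 17, and Cenpj from -0.05 to 1.3 there. All other alternatives moved a value by less than the SD between cells, or a count by at most 1.5 times. Low genes are limited by the missing read depth, and the few cells per embryo within a range, from 1 to 4, limit the split by protocol.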
